A study of Mus musculus with 4 samples.

Results

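Thymocytes that carry an active Foxp3 locus were compared with and without Foxp3 protein. The comparison is between 2 of the 4 arrays of the series, chosen by their titles. The Foxp3-fusion array holds RNA of thymocytes sorted as GFP+, CD4+ and CD8- from Foxp3(gfp/gfp) females, whose homozygous knock-in allele makes a fusion of GFP and Foxp3. The Foxp3-null array holds RNA of cells with the same sort markers from Foxp3(gfpko/wt) females, which are heterozygous for a GFP-marked knockout allele and carry a wild-type allele beside it. The mice of both groups were 6 to 8 weeks old, and their cells were enriched on magnetic beads and then sorted by flow cytometry. The Foxp3-fusion mice were at backcross generation 4 to 6 from 129/Sv to C57BL/6, and the Foxp3-null mice at generation 2, so genotype, backcross generation and array cannot be told apart. How many mice were pooled for an array is unknown here. The other 2 arrays, GFP- CD25- and GFP- CD25+ cells from Foxp3(gfp/gfp) females of the same age and backcross generation as the Foxp3-fusion mice, serve only to show which array of the pair stands apart. The free-text description of the Foxp3-null sample is that of the fusion mice. It was assigned by its title, which its strain entry does not contradict.

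Foxp3 is an X-linked forkhead transcription factor that regulatory T cells need to suppress other T cells, and its loss leads to fatal autoimmunity in mice. Most regulatory T cells arise in the thymus from CD4+ CD8- thymocytes that recognise self antigen, and they are known by high CTLA-4, CD25, GITR and CD103. A heterozygous female inactivates one X chromosome per cell, so her GFP+ cells use the knockout allele while her other cells include normal regulatory T cells. The Foxp3-null cells therefore matured in a thymus that also held Foxp3-expressing cells, and the cells with protein made a fusion protein in place of untagged Foxp3.

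RNA was measured on Affymetrix mouse 430 2.0 arrays after 2 rounds of amplification, with 1 array a group. Every difference below is between 1 array and another, with no replicate check, no error and no test, and the number of arrays limits the precision. Signals are log2 values. Unless the deposited scale is named they were quantile normalized, which gives all 4 arrays the same distribution. Of 18193 genes, each read by its brightest probe set, 9298 were measured, meaning above a floor of 3.76 log2 on at least 1 of the 2 GFP+ arrays. The floor is the 90th percentile of 93 probe sets of 63 genes that are silent in T cells, and signals under it were raised to it, so a fold against such a signal is written "at least". The gap between the 3' and 5' actin control probe sets, a sign of RNA and amplification quality, was 7.10 log2 for Foxp3-null and 5.02 for Foxp3-fusion RNA, and the Gapdh gaps were 4.93 and 4.60. For GFP- CD25- and GFP- CD25+ RNA the actin gaps were 8.37 and 9.29, and the Gapdh gaps 6.56 and 6.51. The Foxp3-fusion array thus had the smallest gaps of the 4 arrays. These gaps move with the comparison, and their part in the differences was not tested. In sorted bulk RNA a smaller share of cells of one kind and less RNA per cell cannot be told apart.

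The GFP+ arrays differed by at least 2-fold in the same direction on both scales for 1278 genes. Foxp3-fusion cells were higher for 832 of the 9298 measured genes (8.95%) and lower for 446 (4.8%). At 4-fold these became 152 higher (1.63%) and 22 lower (0.237%), and at 8-fold 30 higher (0.323%) and 1 lower (0.0108%), the lower one being Pde3b. The split between higher and lower depended on the scaling. After quantile normalization alone 8.96% of measured genes were higher and 9.43% lower. On the deposited scale alone these were 18.1% and 4.86%, and when each array was centred on the median of its probe sets above the floor 5.55% and 15.7%. Higher genes thus made up 48.7%, 78.8% and 26.2% of those 2-fold apart. All 3 scalings put 520 genes (5.59%) higher and 446 lower. The median difference over all measured genes was -0.14 log2 after quantile normalization, 0.14 on the deposited scale and -0.42 after centring. Medians of gene groups below are given in that order and are to be read against these 3 values. In this report "2-fold higher" or "2-fold lower" means on both the quantile normalized and the deposited scale. That rule kept 832 of the 833 genes higher after quantile normalization, but 446 of the 877 lower ones. A gene group with 0 lower can therefore hold genes that were 2-fold lower after quantile normalization alone.

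**Figure D1:**
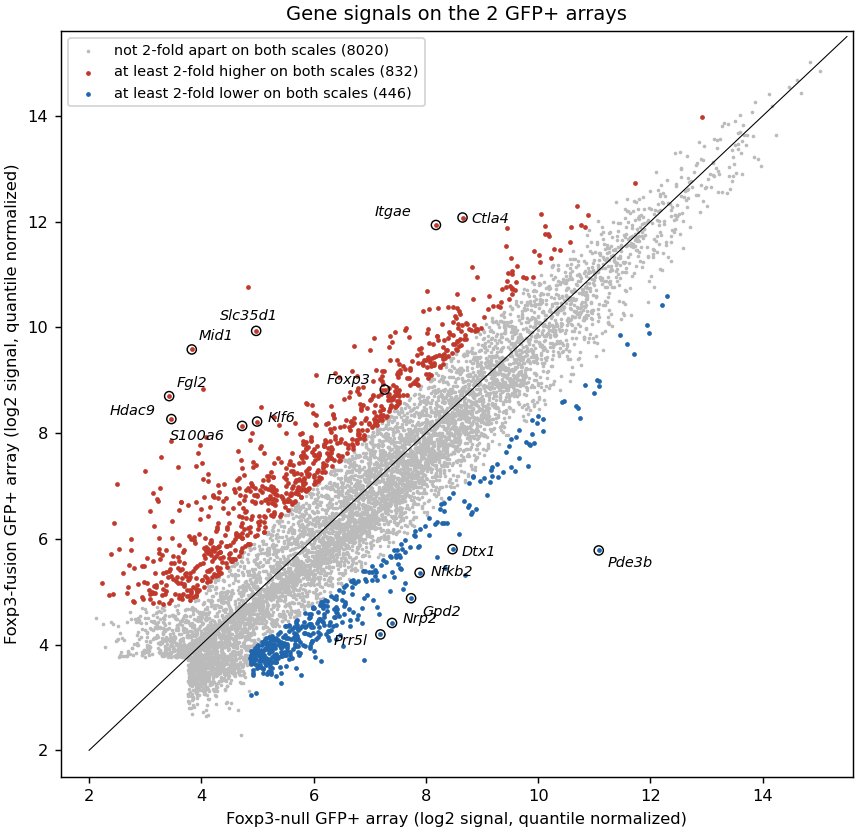
Signal of each of 9298 measured genes on the Foxp3-null array (x axis) and the Foxp3-fusion array (y axis), both in quantile normalized log2 units, with values under the floor drawn as measured. Red points are the 832 genes at least 2-fold higher and blue points the 446 genes at least 2-fold lower on both scales, and Pde3b lies farthest below the diagonal.

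Higher and lower genes, as called on both scales, lay at different signal levels. On the deposited scale the median difference also moved with signal, from -0.12 log2 under 5 log2 to 0.46 between 7 and 9 log2. After quantile normalization these medians were -0.08 and -0.17. A lower gene had to pass on both scales, so the shares by signal depend on the scaling. Among genes with a mean signal under 5 log2, 6.07% were 2-fold higher and 7.76% lower. Between 5 and 7 log2 the shares were 12.5% and 5.90%, between 7 and 9 log2 9.65% and 2.20%, and at 11 log2 or more 2.75% and 0.551%. Of the 446 lower genes, 326 read under 7 log2 on the Foxp3-null array, and 71 were lower bounds. Among the 832 higher genes, 477 reached 7 log2 or more on the Foxp3-fusion array and 108 were lower bounds. A second probe set above the floor existed for 374 of the higher genes and was itself 2-fold higher for 135 (36.1%) and 2-fold lower for 11. For 135 of the lower genes it existed, and it was 2-fold lower for 31 and 2-fold higher for 6.

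**Figure D2:**
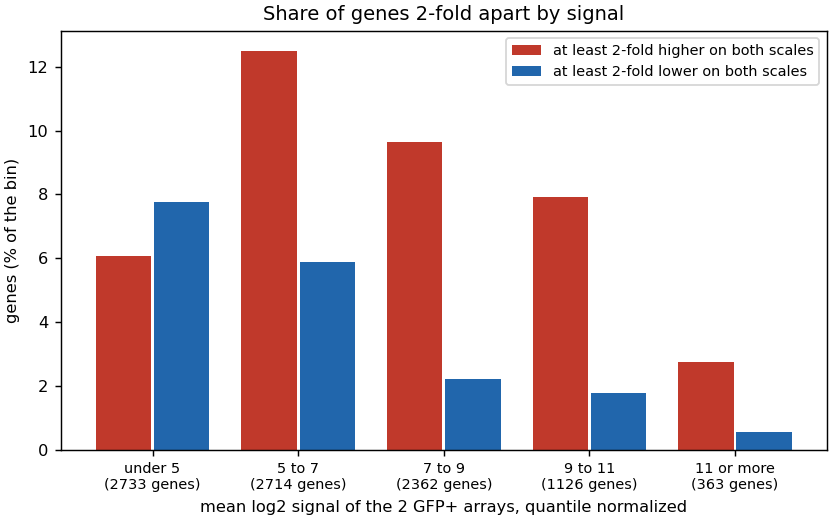
Share of measured genes (y axis, percent of the bin) that were at least 2-fold higher (red) or lower (blue) in Foxp3-fusion cells on both scales, by mean log2 signal of the 2 GFP+ arrays (x axis). Lower genes outnumber higher ones in the bin under 5 log2, at 7.76% against 6.07%, and are the smaller share in the 4 brighter bins.

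The sort genes come first. Foxp3 read 7.27 log2 in Foxp3-null and 8.82 in Foxp3-fusion cells, against 2.76 in GFP- CD25- and 2.88 in GFP- CD25+ cells. Both GFP+ arrays were thus far above both GFP- arrays, and the Foxp3-fusion array was 2.94-fold above the Foxp3-null array, or 4.67-fold as deposited. It is unknown here if the knockout allele keeps the sequence that the one Foxp3 probe set reads. The signal therefore checks GFP sorting and not the null label. Cd4, whose product was gated, read 9.37 in Foxp3-null and 8.55 in Foxp3-fusion cells, a difference of -0.83 after quantile normalization and -0.21 as deposited. Cd8a, whose product was gated out, was near the floor at 4.70 and 4.42. Il2ra, the alpha chain of the IL-2 receptor, was not named in the gate of the GFP+ cells and was 2.37-fold higher in Foxp3-fusion cells, at 10.35 against 9.11 log2. Its other probe set read 6.42 against 3.77.

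The leading genes were the 15 with the largest differences each way among named genes without a second probe set that went the other way. That rule left out 3 genes upward, Ighm at 60.9-fold, Amn1 at 13.7-fold and Cldnd1 at no less than 12.1-fold, and the receptor segment Trav12n-2. Ighm had the largest difference of all upward and is described with the B cell markers. It left out Vat1, Lsm12 and Gm6600 downward. For 11 of the 15 leading genes upward, the Foxp3-fusion array was at least 2-fold above each of the other 3 arrays. For 4 of them, Mid1, Slc35d1, Tbc1d23 and Ncbp3, the Foxp3-null array was at least 2-fold below each of the other 3, including both GFP- arrays. Slc35d1 met both descriptions and Rnf167 neither, with 4.00 log2 in Foxp3-null and 7.43 in Foxp3-fusion cells, and 7.01 and 4.11 in GFP- CD25- and GFP- CD25+ cells. Itgae and Ctla4, among the 11, were also well above the floor in Foxp3-null cells.

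Fgl2, a secreted fibrinogen-like protein with suppressive activity, read 3.43 log2 in Foxp3-null and 8.70 in Foxp3-fusion cells, with 4.37 in GFP- CD25- and 3.43 in GFP- CD25+ cells. The Foxp3-fusion array alone was high, at least 30.6-fold above Foxp3-null cells, and its second probe set was higher by 1.07 log2. Ctla4, the inhibitory receptor that competes with CD28 for its ligands, read 8.65 in Foxp3-null and 12.08 in Foxp3-fusion cells, with 4.58 and 8.70 in GFP- CD25- and GFP- CD25+ cells. The Foxp3-null level was thus close to that of GFP- CD25+ cells, and the Foxp3-fusion level was 10.7-fold above it. Itgae, the CD103 chain that binds E-cadherin, read 8.18 and 11.94, with 6.77 and 9.35 in the GFP- arrays, so that Foxp3-null cells lay below GFP- CD25+ cells and Foxp3-fusion cells 13.5-fold above Foxp3-null cells. Its second probe set differed by 4.05 log2.

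Other leading genes were highest on the Foxp3-fusion array and lower by at least 2-fold on each of the other 3. Hdac9, a class IIa histone deacetylase, read 3.47 in Foxp3-null and 8.26 in Foxp3-fusion cells, with 3.55 and 5.38 in GFP- CD25- and GFP- CD25+ cells, so its difference was at least 22.7-fold. Tent5a, a poly(A) polymerase family gene, read 4.03 and 8.83, with 4.66 and 6.17 in the GFP- arrays. P4ha1, the collagen prolyl 4-hydroxylase subunit, read 3.47 and 7.86, with 4.66 and 3.92. Its difference was at least 17.1-fold, although its second probe set above the floor differed by 0.01 log2. The calcium-binding protein genes S100a4 and S100a6 went from 3.98 to 7.78 and from 4.73 to 8.14, or 14.0-fold and 10.6-fold. Both were between 4.59 and 5.11 in the GFP- arrays, so the Foxp3-fusion array stood apart for each.

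A different shape was seen for Mid1, a microtubule-associated ubiquitin ligase on the X chromosome. It read 3.83 in Foxp3-null and 9.58 in Foxp3-fusion cells, but 10.59 and 10.18 in GFP- CD25- and GFP- CD25+ cells. The brightest Mid1 probe set was thus near the floor on the Foxp3-null array and bright on the other 3, which come from mice of a later backcross generation, while its other 2 probe sets were under the floor on all 4 arrays. Ncbp3, an mRNA cap-binding protein, was under the floor in Foxp3-null cells and read 7.28 in Foxp3-fusion cells, with 8.38 and 7.12 in the GFP- arrays. Tbc1d23, a vesicle-trafficking gene, read 3.94 and 7.62 with 7.94 and 7.02. In Slc35d1, a nucleotide sugar transporter, the values were 4.98 and 9.93 with 7.02 and 6.68, so Foxp3-null cells were lowest and Foxp3-fusion cells highest of the 4. For these genes genotype and backcross generation cannot be told apart. Ccndbp1, Ncoa4 and Rnf167 completed the 15 with 14.4-fold, 10.8-fold and 10.7-fold.

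**Figure D3:**
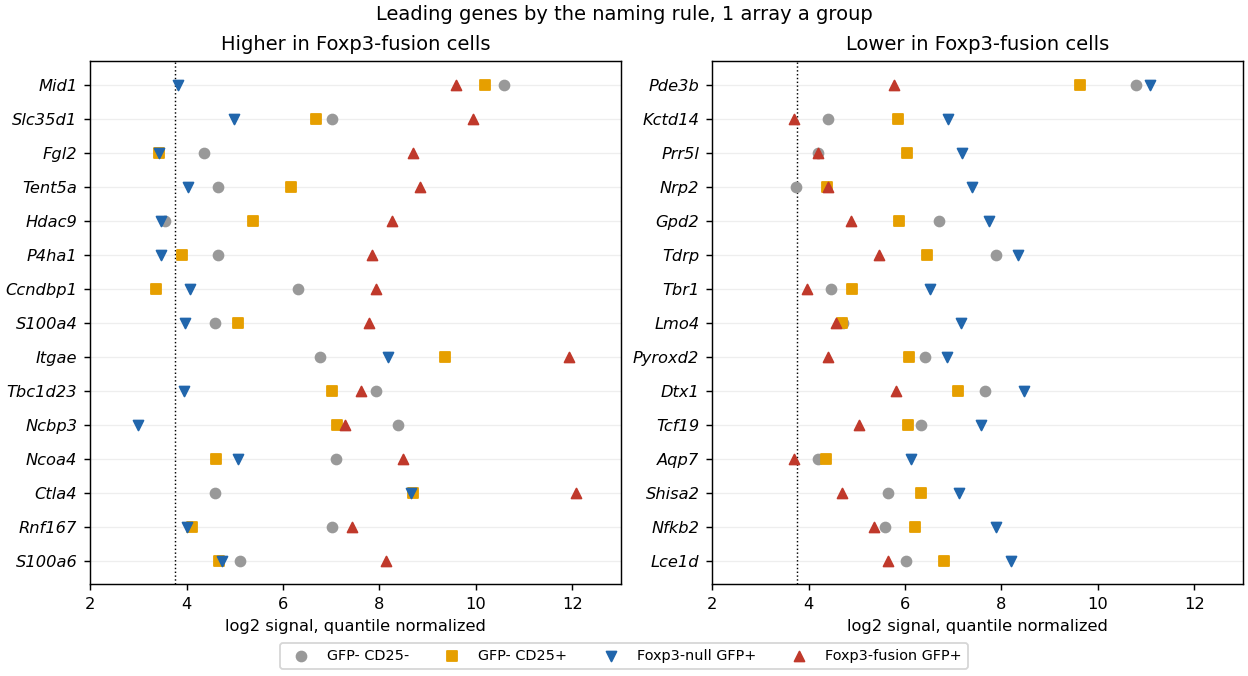
Quantile normalized log2 signal (x axis) of the 15 leading genes upward (left) and downward (right), 1 point per array. Genes with a second probe set going the other way, such as Ighm, are not drawn. Dotted lines mark the floor. Mid1 is low only on the Foxp3-null array (3.83), Fgl2 is high only on the Foxp3-fusion array (8.70), and Pde3b is low only on the Foxp3-fusion array (5.78).

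Promoter sequence was set beside the differences, because Foxp3 binds DNA through a forkhead domain. RefSeq (GRCm38.p6) windows of 300 bases, from 250 before to 50 after an annotated start, were searched for the 7-base forkhead core TGTTTAC and, for the other strand, GTAAACA. These letters were in 3.65% of all 32851 windows, 2.65% of those of measured genes, 2.60% of those of genes 2-fold higher and 2.44% of those of genes 2-fold lower. The share among higher genes was thus close to that among measured genes. Of the 30 leading genes, 26 had a window, and of their windows 1, for Mid1, held the letters. Among 82 genes of the lists below that were 2-fold apart and had a window, 4 did: Swap70, Prdm1, Pim1 and Gbp3. These windows are shown with the match in capitals, and that of Ctla4 is shown as an example of a regulatory T cell gene whose window lacks the letters, as does that of Fgl2. A match describes the letters and is not a site, and a window without one says nothing of Foxp3. The windows lie at chrX:169684949-169685248 (+) for Mid1, chr1:60908775-60909074 (+) for Ctla4, chr7:110221453-110221752 (+) for Swap70, chr17:29492835-29493134 (+) for Pim1, chr10:44458699-44458998 (-) for Prdm1 and chr3:142559794-142560093 (+) for Gbp3.
Mid1: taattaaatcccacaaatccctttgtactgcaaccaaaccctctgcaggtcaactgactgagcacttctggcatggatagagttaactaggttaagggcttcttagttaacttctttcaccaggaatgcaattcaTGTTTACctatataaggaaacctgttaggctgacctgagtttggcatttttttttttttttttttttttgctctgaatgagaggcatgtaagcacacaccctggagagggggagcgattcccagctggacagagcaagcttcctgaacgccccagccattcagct
Ctla4: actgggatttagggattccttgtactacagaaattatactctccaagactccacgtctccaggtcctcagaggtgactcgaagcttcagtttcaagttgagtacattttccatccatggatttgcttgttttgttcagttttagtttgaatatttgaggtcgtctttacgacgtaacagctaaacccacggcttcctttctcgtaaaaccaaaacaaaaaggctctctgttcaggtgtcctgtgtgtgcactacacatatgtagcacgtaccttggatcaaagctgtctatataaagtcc
Swap70: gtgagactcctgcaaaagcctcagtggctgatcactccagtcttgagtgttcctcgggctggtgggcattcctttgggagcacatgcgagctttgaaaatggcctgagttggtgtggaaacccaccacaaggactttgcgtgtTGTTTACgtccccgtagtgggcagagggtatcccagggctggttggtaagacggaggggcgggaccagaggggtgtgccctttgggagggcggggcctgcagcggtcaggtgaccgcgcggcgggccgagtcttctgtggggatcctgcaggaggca
Pim1: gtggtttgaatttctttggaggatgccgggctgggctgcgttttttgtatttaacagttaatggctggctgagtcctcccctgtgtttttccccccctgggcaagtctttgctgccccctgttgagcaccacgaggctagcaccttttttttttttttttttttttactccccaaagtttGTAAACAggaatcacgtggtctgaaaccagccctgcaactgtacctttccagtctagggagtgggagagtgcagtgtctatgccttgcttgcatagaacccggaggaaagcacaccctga
Prdm1: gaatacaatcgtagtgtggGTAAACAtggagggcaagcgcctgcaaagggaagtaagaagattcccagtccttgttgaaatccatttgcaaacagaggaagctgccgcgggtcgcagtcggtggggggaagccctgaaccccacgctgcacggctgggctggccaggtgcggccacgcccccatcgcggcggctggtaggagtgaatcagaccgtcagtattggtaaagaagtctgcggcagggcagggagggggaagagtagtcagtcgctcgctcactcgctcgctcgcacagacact
Gbp3: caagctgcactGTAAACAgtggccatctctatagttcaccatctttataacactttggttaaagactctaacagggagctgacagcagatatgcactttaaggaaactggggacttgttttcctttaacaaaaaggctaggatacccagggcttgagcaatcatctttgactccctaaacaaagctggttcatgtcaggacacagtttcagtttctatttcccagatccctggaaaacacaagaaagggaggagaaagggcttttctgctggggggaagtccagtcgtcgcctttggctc

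Downward, Foxp3-null cells were the array that stood apart for most leading genes. For 10 of the 15 the Foxp3-null array was at least 2-fold above each of the other 3 arrays, and for 5 the Foxp3-fusion array was at least 2-fold below each of the others. Gpd2 and Tcf19 met both descriptions, and Tdrp and Shisa2 neither. Pde3b, a phosphodiesterase that degrades cyclic AMP, read 11.08 log2 in Foxp3-null and 5.78 in Foxp3-fusion cells, with 10.78 and 9.62 in GFP- CD25- and GFP- CD25+ cells. It was 39.3-fold lower, and it was bright on the other 3 arrays. Dtx1, a Notch target and regulator, read 8.47 and 5.80, with 7.66 and 7.10 in the GFP- arrays, and a second probe set was lower by 1.40 log2.

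Nrp2, a receptor for class 3 semaphorins, read 7.40 in Foxp3-null and 4.41 in Foxp3-fusion cells, with 3.73 and 4.39 in the GFP- arrays. It was 7.93-fold lower, and the Foxp3-null array alone was high. All 3 of its probe sets above the floor were lower, by 2.99, 2.41 and 2.17 log2. Prr5l, a component of mTORC2, read 7.19 and 4.19 with 4.19 and 6.03, and its second probe set was lower by 2.20. Nfkb2, the p100 subunit of the alternative NF-kappaB pathway, read 7.89 and 5.36 with 5.58 and 6.20. Gpd2, the mitochondrial glycerol-3-phosphate dehydrogenase, read 7.74 and 4.88 with 6.71 and 5.88. Its second probe set was lower by 1.02 log2. Lmo4, a LIM-domain transcription cofactor, read 7.16 and 4.58 with 4.71 and 4.70. Each of these 5 genes was highest in Foxp3-null cells. Kctd14, Tdrp, Tbr1, Pyroxd2, Tcf19, Aqp7, Shisa2 and Lce1d completed the 15, from at least 5.15-fold (Aqp7) to at least 8.82-fold (Kctd14) lower. Of these, Tbr1 is known from cortical neurons, Aqp7 from fat cells and Lce1d from skin, and their signals in Foxp3-null cells were 6.51, 6.13 and 8.19 log2. The probe sets of Aqp7 and Lce1d are of a kind that can match several transcripts. Lce1d also read 5.65 in Foxp3-fusion cells and 6.02 and 6.82 in the GFP- arrays.

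Most genes of regulatory T cell surface and effector function were higher in Foxp3-fusion cells, with the highest list median on each of the 3 scalings. Of 23 measured members, 14 were 2-fold higher in Foxp3-fusion cells and 0 lower, and 13 were higher on all 3 scalings. The median difference was 1.28, 1.84 and 1.06 log2 on the 3 scalings, and 22 of the 23 were above 0 on both the quantile normalized and the deposited scale. The list was drawn up with results of these arrays known. Its members Lag3, Il10 and Gzmb were not above the floor on either GFP+ array. Beside Fgl2, Itgae, Ctla4 and Il2ra, Nt5e, the CD73 ectoenzyme that makes adenosine, went from 4.72 to 7.35 log2 and was 6.17-fold higher. Entpd1, the CD39 ectoenzyme that acts before it, was low, at 3.49 and 5.24, with a fold of at least 2.79. Centring brought it under 2-fold, at 0.92 log2.

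Nrp1, a semaphorin and VEGF co-receptor that marks thymus-derived regulatory T cells, read 10.12 and 11.92 and was 3.48-fold higher, with its other 3 probe sets above the floor higher by 1.94, 2.40 and 2.22 log2. Icos, a costimulatory receptor, read 10.69 and 12.30, against 11.81 in GFP- CD25- cells, so that Foxp3-null cells were the lowest of the 4 arrays. Izumo1r, the folate receptor 4 gene, read 6.30 and 7.84, and Klrg1, an inhibitory lectin receptor, 2.53 and 5.81. Socs2, Plagl1, Capg and Swap70 were 6.48-fold, 2.70-fold, 2.42-fold and 2.35-fold higher. Each of these 4 also had a second probe set above the floor in the same direction.

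The other 9 members were under 2-fold on the quantile normalized scale. Tnfrsf18, which encodes GITR, read 8.96 and 9.56, and Tnfrsf4, which encodes OX40, 9.70 and 10.30. Gpr83, an orphan receptor, read 10.35 and 10.87, Tnfrsf9 8.94 and 9.29, and Il2rb 7.25 and 7.59. Itgb8, an integrin chain that activates TGF-beta, read 9.50 and 10.40, Cd83 8.58 and 9.37, and Penk, which encodes enkephalin, 7.41 and 7.45. In all of these 8 Foxp3-null cells were already above both GFP- arrays. As deposited, Itgb8, Cd83, Tnfrsf18, Tnfrsf4 and Gpr83 were past 2-fold, at 1.45, 1.39, 1.21, 1.15 and 1.11 log2. Ebi3, an IL-35 subunit gene, was just above the floor in Foxp3-fusion cells, at 3.87, and under it in Foxp3-null cells.

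**Figure D4:**
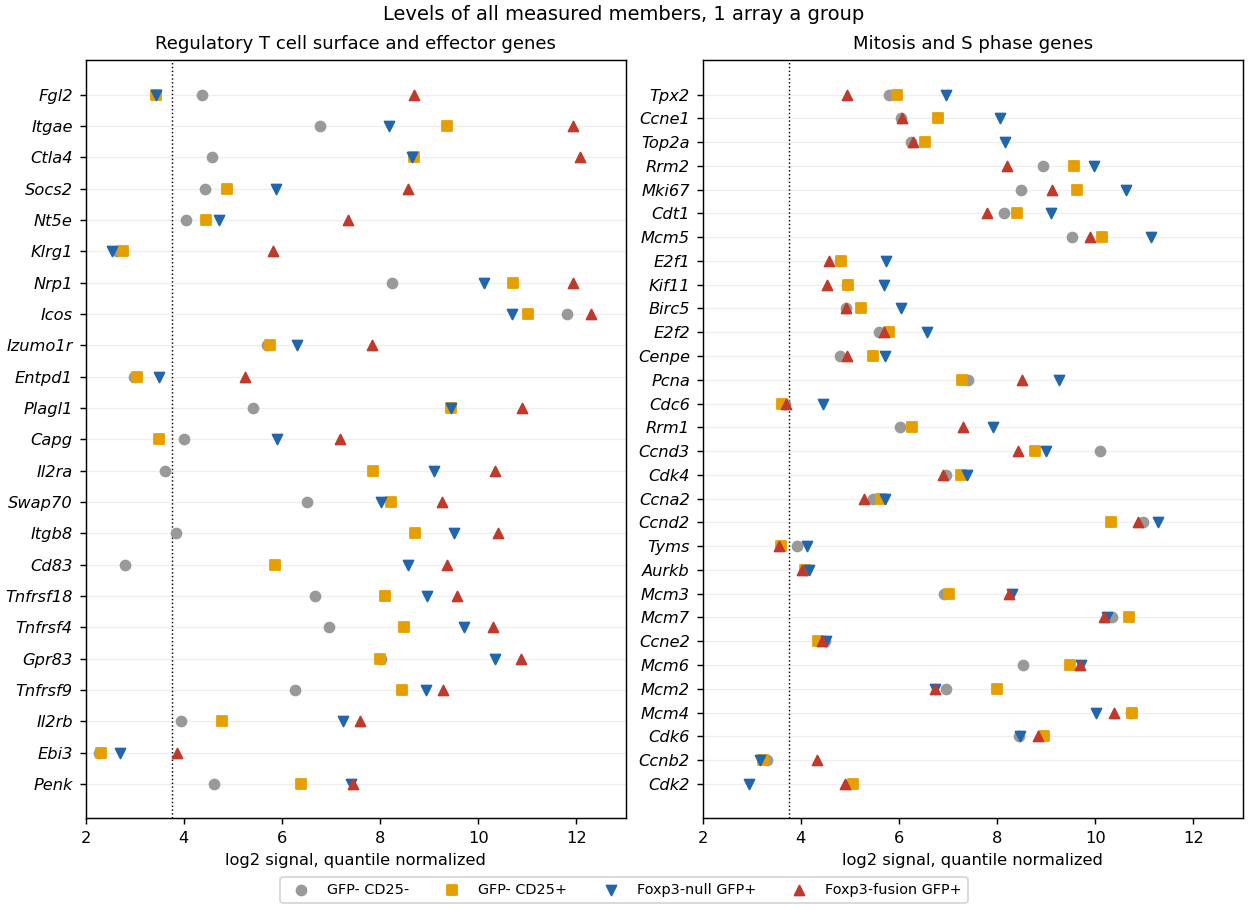
Quantile normalized log2 signal (x axis) of every measured member of the regulatory T cell surface list (left, 23 genes) and the mitosis and S phase list (right, 30 genes), 1 point per array, ordered by the difference between the GFP+ arrays. Foxp3-fusion points lie to the right of Foxp3-null points throughout the left panel, and Foxp3-null points lie to the right for most genes of the right panel, with Cdk2 and Ccnb2 among the exceptions.

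The IL-2 pathway drives growth and survival of regulatory T cells through STAT5. Of 12 measured members, 4 were 2-fold higher and 0 lower, and the median difference was 0.68, 1.31 and 0.53 log2. Pim1, a survival kinase induced by STAT5, went from 6.39 to 9.14 and was 6.75-fold higher. Stat5b, the transcription factor itself, went from 6.88 to 8.54 and was 3.16-fold higher. Socs2 and Il2ra are the others. Cish, another STAT5 target, read 7.45 and 7.48, and Pim2, a related kinase gene, differed by -1.29 log2, or -0.92 as deposited. Among 18 other cytokine receptors, 4 were 2-fold higher and 0 lower (median 0.16, 0.68 and -0.03). Ifngr1 and Ifngr2, the chains of the interferon-gamma receptor, were 4.61-fold and 4.93-fold higher, but Ifngr2 at 6.96 in Foxp3-fusion cells was below 7.96 and 8.35 of the GFP- arrays, so that Foxp3-null cells, at 4.66, stood low. Il1r2, the decoy receptor of IL-1, went from 6.37 to 8.10, and Tgfbr1, the TGF-beta receptor kinase, from 10.28 to 11.49. Il7r read 9.41 and 9.93.

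Of 18 measured inhibitory and costimulatory receptors, 5 were 2-fold higher and 0 lower (median 0.05, 0.58 and -0.20). After Ctla4 came Cd48 at 5.57-fold, Cd28 at 3.69-fold, Icos at 3.07-fold and Cd86 at 2.02-fold. Cd28, the main costimulatory receptor, read 8.01 in Foxp3-null and 9.89 in Foxp3-fusion cells, with 10.41 and 9.08 in the GFP- arrays. Foxp3-null cells were again the lowest of the 4. Pdcd1, which encodes PD-1, went the other way after quantile normalization, at 8.82 and 7.78, or -1.03 log2, but at -0.40 as deposited did not reach 2-fold.

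Transcription factors of regulatory and helper T cells differed for a minority. Of 24 measured, 7 were 2-fold higher and 0 lower, and the median was -0.07, 0.54 and -0.24 log2, on either side of 0 by scaling. Maf, a factor of IL-10-producing T cells, read 8.40 in Foxp3-null and 10.38 in Foxp3-fusion cells, with 8.95 and 8.50 in the GFP- arrays, and its other 3 probe sets were higher by 2.19, 2.21 and 3.30. Irf4, which acts in effector regulatory T cells, read 5.51 and 7.33 with 5.54 and 5.46. Stat4, the IL-12 signal transducer, read 4.22 and 6.79 with 3.62 and 3.80. Prdm1, which encodes Blimp-1, read 2.71 and 5.51 with 2.82 and 2.77, a difference of at least 3.35-fold. In these 4 genes the Foxp3-fusion array was the highest, and for Maf the other 3 arrays were also well above the floor.

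Rora read 6.30 and 8.08, and Bach2, a repressor of effector programmes, 7.92 and 9.51 with 10.21 in GFP- CD25- cells. Ikzf2, which encodes Helios, read 12.72 and 12.77, although a dimmer probe set differed by 2.94 log2. Ikzf4, which encodes Eos, read 9.47 and 9.12, Foxo1 10.86 and 10.85, and Gata3 7.73 and 7.61. None of these 4 reached 2-fold on either scale. Bcl6 and Foxo3 were lower by 1.20 and 1.17 log2 after quantile normalization, and by 0.58 and 0.57 as deposited. Of 5 measured effector cytokine and ligand genes Ccl5, a chemokine, was 5.51-fold higher, and 19 others on the array, among them Ifng, Il2, Il4 and Il17a, were not above the floor on either GFP+ array.

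Signalling from the T cell receptor was read with 3 lists. Of 22 measured receptor and proximal genes, 1, the adaptor Nck1, was 2-fold higher and 0 lower (median -0.23, 0.24 and -0.53). After quantile normalization alone 3 of them were lower. Zap70, the kinase bound to the receptor, read 8.82 and 7.33, a difference of -1.49 that was -0.85 as deposited. Of 20 measured receptor-induced genes, 6 were 2-fold higher and 0 lower (median -0.05, 0.31 and -0.22): Nfatc1 at 4.62-fold, Irf4, Myc at 3.10-fold, the EGR corepressor Nab2 at 2.91-fold, Fos and Irf8. After quantile normalization alone 6 were higher and 4 lower. Fos and Irf8 were bounds on dim signals and were under 2-fold after centring. Egr2 read 10.41 and 10.08, Nr4a1 8.82 and 8.30, and Nr4a3 10.37 and 9.96, so these induced genes did not differ by 2-fold. Among 25 signal attenuators, 6 were 2-fold higher and 0 lower (median 0.03, 0.46 and -0.09). Rgs1, which damps G protein signals, went from 9.43 to 11.54, with 5.12 and 8.89 in the GFP- arrays. Dusp4, a MAP kinase phosphatase, went from 7.67 to 9.04, and Cblb, a ubiquitin ligase that limits receptor signals, from 8.54 to 10.18. For Cblb the GFP- arrays read 10.21 and 10.38, so the Foxp3-null array stood low.

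Of 22 measured cyclic AMP and adenosine genes, 5 were 2-fold higher and 1 lower (median -0.14, 0.47 and -0.31). The shares over all measured genes were 8.95% higher and 4.8% lower, so 1 lower gene of 22 is near the share of all genes. Pde3b was the lower one, by the values above. Pde2a, another cyclic AMP phosphodiesterase, read 2.49 in Foxp3-null and 7.04 in Foxp3-fusion cells, with 4.29 and 2.52 in the GFP- arrays, at least 9.69-fold apart. Pde4b, of the T cell's main phosphodiesterase class, went from 6.95 to 8.48, but the GFP- arrays read 9.55 and 8.45. Of its 2 other probe sets above the floor, 1 was also 2-fold higher and 1 went the other way. Crem, a cyclic AMP-induced repressor, went from 4.12 to 7.23, and its second probe set was higher by 1.28. The ectoenzyme genes Nt5e and Entpd1 were the others. Of the prostaglandin receptors, Ptger4 read 10.94 and 11.61 and Ptger2 8.39 and 8.23. Thus phosphodiesterase genes differed in opposite directions between the same 2 arrays.

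Adhesion and migration genes held members on both sides, to be read against 8.95% higher and 4.8% lower over all measured genes. Of 16 measured integrin and adhesion genes, 5 were 2-fold higher and 2 lower (median 0.47, 1.10 and 0.32). Itgb1, the beta-1 chain, went from 5.04 to 7.73, but its other probe sets above the floor differed by -0.77, -0.60 and 0.99 log2. Cd44, the hyaluronan receptor, went from 8.06 to 10.35, with 8.46 and 9.82 in the GFP- arrays, and its second probe set was higher by 1.03. Cd47 and Itgav were 2.77-fold and 2.02-fold higher. Itga4, the alpha-4 chain that pairs with beta-1, went down from 9.88 to 8.25, and Itgb3 from 6.54 to 4.73. Of 13 measured chemokine and migration receptors, 3 were 2-fold higher and 2 lower (median 0.09, 0.52 and 0.00). Cxcr3, of inflamed tissue homing, went from 4.68 to 6.69, Cxcr5, of B cell follicles, from 2.80 to 5.44, and the receptor gene P2ry10 from 10.05 to 12.13. Ccr2 and Cxcr6 were 3.30-fold and 2.60-fold lower. Ccr6 read 9.39 and 10.19, and Ccr7 10.33 and 10.24.

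**Figure D5:**
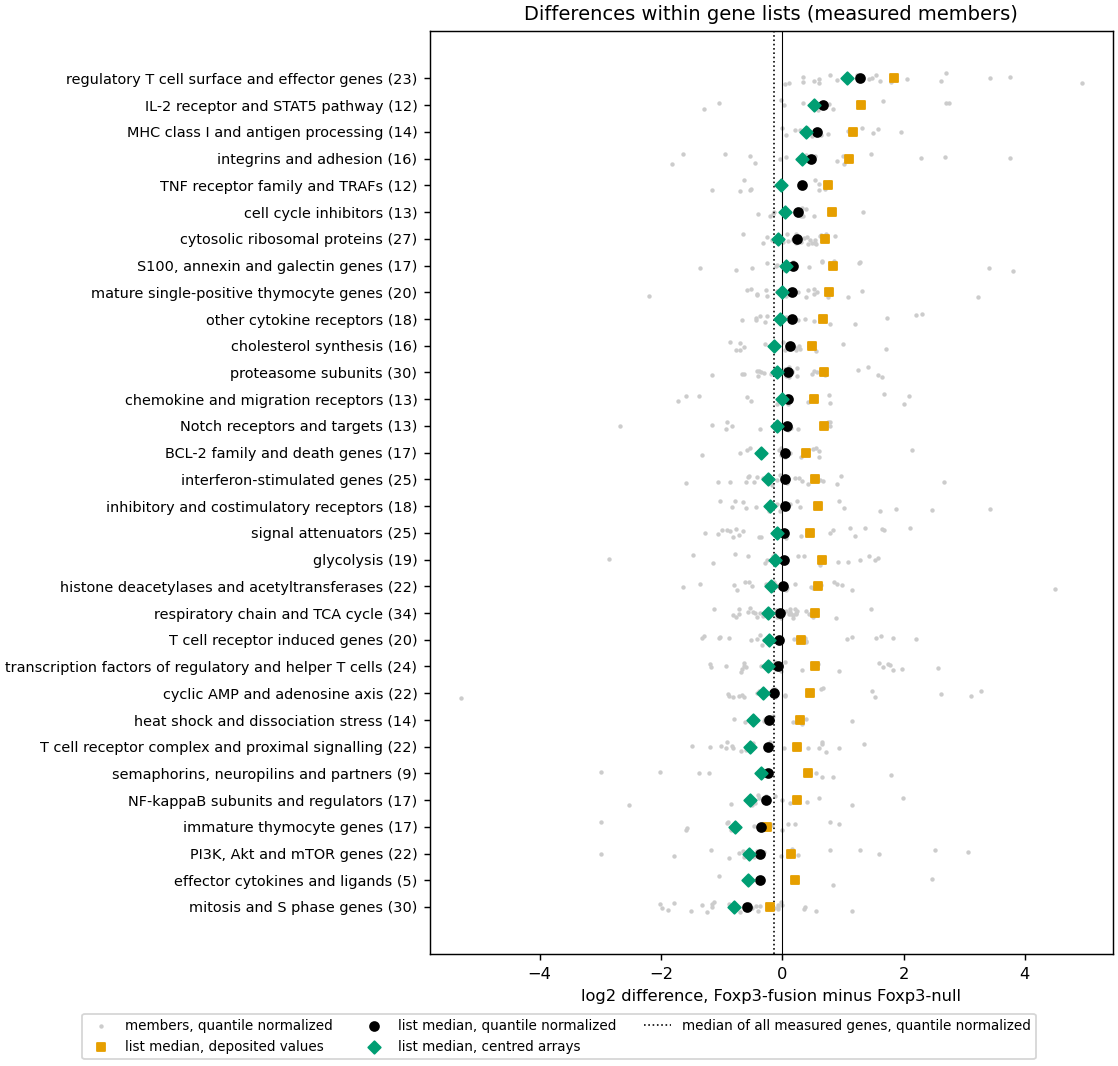
Log2 differences, Foxp3-fusion minus Foxp3-null (x axis), for gene lists with at least 5 measured members (number in parentheses). Grey points are members after quantile normalization, and the black, orange and green symbols are list medians on 3 scalings. Medians of the regulatory T cell surface list lie between 1.06 and 1.84 and those of the mitosis and S phase list between -0.79 and -0.21.

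More mitosis and S phase genes were 2-fold lower than 2-fold higher in Foxp3-fusion cells. Of 30 measured, 4 were 2-fold lower and 1, Cdk2, was 2-fold higher, and the median was -0.58, -0.21 and -0.79 log2, below the median of all genes on each scaling. It was the lowest median of the T cell and general lists after quantile normalization and centring, while as deposited immature thymocyte genes were lower, at -0.25. Over all measured genes 4.8% were lower and 8.95% higher. After quantile normalization alone 10 were lower, against 9.43% of all genes. Top2a, the topoisomerase of dividing cells, read 8.17 in Foxp3-null and 6.28 in Foxp3-fusion cells, with 6.24 and 6.53 in GFP- CD25- and GFP- CD25+ cells. Ccne1, which encodes cyclin E1, read 8.06 and 6.07 with 6.03 and 6.80, and Tpx2, a spindle protein, 6.95 and 4.94 with 5.79 and 5.97. Rrm2, a ribonucleotide reductase subunit, read 9.97 and 8.19 with 8.93 and 9.57. In all 4 the Foxp3-null array was the highest, and of these Rrm2 alone had a second probe set that was 2-fold lower. Mki67 read 10.62 and 9.11, a difference of -1.51 that was -0.88 as deposited. The replication helicase genes Mcm4 and Mcm6 differed by 0.35 and -0.02 log2. Stmn1, a microtubule regulator of dividing cells outside the list, went from 10.71 to 8.46 on 2 probe sets that were both 2-fold lower. Of 13 measured cell cycle inhibitors, 1, Cdkn1b, which encodes p27, was 2-fold higher and 0 lower, and its values were 8.74 and 10.07.

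Maturation markers were read next. Of 17 measured immature thymocyte genes, Nrp2 was 2-fold lower and 0 were higher (median -0.35, -0.25 and -0.78). On both the quantile normalized and the deposited scale 11 of them were below 0 and 3 above. Of all 9298 measured genes 3322 were below 0 and 3414 above. Cd24a read 8.02 and 6.45, a difference of -1.57 that stayed just under 2-fold as deposited, at -0.98. Among 20 mature single-positive genes, Klf6, H2-K1 and H2-D1 were 2-fold higher and Ms4a4c lower (median 0.17, 0.77 and -0.01). On both scales 11 of the 20 were above 0 and 2 below. Klf6, a zinc finger factor, went from 4.99 to 8.22 with 5.75 and 5.57 in the GFP- arrays. Of its 2 other probe sets above the floor, 1 was also 2-fold higher and 1 went the other way. Ms4a4c went from 11.09 to 8.90 on 2 probe sets. Of 14 measured genes of the MHC class I pathway, 5 were 2-fold higher and 0 lower (median 0.57, 1.16 and 0.39), and 13 were above 0 on both scales. They were the class I heavy chains H2-K1, H2-D1 and H2-M3, the immunoproteasome subunit Psmb9 at 2.97-fold and the peptide-trimming enzyme Erap1 at 2.81-fold. H2-K1 and H2-D1 probes can also read other class I genes and the strains' class I alleles. Of 30 proteasome subunits, Psma7, Psmb9, Psma4 and Psmb2 were 2-fold higher and 0 lower (median 0.10, 0.69 and -0.08). Among 25 interferon-stimulated genes, 1, the GTPase Gbp3, was 2-fold higher, from 8.02 to 10.68, and 0 lower (median 0.05, 0.54 and -0.24). Ifit1 read 10.57 and 8.98, and its difference of -1.60 was -0.97 as deposited.

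NF-kappaB genes had members on both sides, in numbers near the shares over all measured genes, 8.95% higher and 4.8% lower. Of 17 measured NF-kappaB genes, Malt1 and Relb were 2-fold higher and Nfkb2 lower (median -0.27, 0.24 and -0.54), with Relb near the floor at 3.78 and 4.92. Malt1, the protease that links antigen receptors to NF-kappaB, went from 6.88 to 8.87, but its other probe sets above the floor differed by -0.56 and 0.19. Among 12 TNF receptor family and TRAF genes, 0 were 2-fold higher and Traf5 was lower on its brightest probe set and higher by 1.23 on the other (median 0.33, 0.76 and -0.02). Of 22 PI3K, Akt and mTOR genes, 4 were 2-fold higher and 2 lower (median -0.36, 0.15 and -0.55). Phlpp1, the phosphatase of Akt, went from 6.04 to 9.10 with 5.64 and 7.44 in the GFP- arrays, and was 8.33-fold higher. Inpp4b, a lipid phosphatase, went from 5.67 to 8.18, but the GFP- arrays read 9.18 and 8.10. Pik3cd, the p110 delta catalytic subunit, went from 12.20 to 10.42, while its dimmer probe sets differed by 0.68 and -0.22. Prr5l was the other lower gene. Among 13 Notch genes, Dtx1 was 2-fold lower and Notch1 differed by 0.08 log2. Among 9 semaphorin and neuropilin genes, Nrp1 was higher and Nrp2 and Sema4a lower, so the paired receptors Nrp1 and Nrp2 differed in opposite directions.

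Glycolysis had 6 of 19 genes 2-fold apart, against 13.7% of all measured genes. It had 5 higher, among them the glucose transporter Slc2a3 at 2.70-fold, with a second probe set that was 2-fold higher, and Pfkfb3, from 4.80 to 6.39 log2, and 1, Gpd2, lower (median 0.02, 0.65 and -0.12). Among 34 respiratory chain and TCA cycle genes, Ndufa4 was 2-fold higher and 0 lower, and of 27 ribosomal protein genes 0 were 2-fold apart (median 0.25, 0.71 and -0.07). Of 17 genes of the S100, annexin and galectin list, S100a4, S100a6, Capg and Anxa4 were higher and 0 lower, and Lgals1, which encodes galectin-1, differed by -0.11 log2. Of 22 histone deacetylase and acetyltransferase genes, Hdac9 and Hdac3 were higher and Hdac11 lower, near the 8.95% and 4.8% of all measured genes. Apaf1, of the apoptosome, was the one of 17 BCL-2 family and death genes that was 2-fold apart, at 5.30 and 7.44. Bcl2l11, which encodes Bim, was lower by 1.32 log2 after quantile normalization and by 0.70 as deposited. Of 16 cholesterol genes, Abca1 and Idi1 were higher and 0 lower, and of 14 heat shock and dissociation genes Fos was higher and 0 lower.

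Markers of other cells were read on the same arrays. Of 17 dendritic cell and macrophage markers, 6 were measured, and 3 were 2-fold lower in Foxp3-fusion cells: C1qb, from 7.37 to 5.02, Csf1r, from 5.50 to 3.81, and Adgre1, from 5.21 to 4.15. Their signals summed to 8.88 log2 for Foxp3-null and 7.89 for Foxp3-fusion RNA, against 8.08 and 8.38 on the GFP- arrays. Itgax, Cd74 and H2-Ab1 were not above the floor on either GFP+ array. The macrophage gene Lyz1 also went from 6.65 to 4.36 on 2 probe sets. These markers were higher together with the Foxp3-null array's leading genes, and their part in those differences was not tested. Of 11 NK and NKT markers, 3 were measured, with Klra1 2-fold lower. CD8 and double-positive markers had 5 of 7 measured and 0 apart, thymic epithelial markers 2 of 10 and 0 apart, and markers of gamma delta T cells and of red cells and platelets had 0 measured. Of 7 measured CD4 T cell markers, Cd28 was higher and Thy1 lower, from 8.68 to 6.72. For B cells, Cd79a, Pax5 and Ebf1 were not above the floor on either GFP+ array, and Ms4a1 was lower at 3.92 against 5.63. Ighm, the mu heavy chain gene, read 4.83 in Foxp3-null and 10.76 in Foxp3-fusion cells, with 9.54 and 8.94 in the GFP- arrays. The Foxp3-null array was thus the low one for Ighm, as it was for Mid1, and genotype and backcross generation cannot be told apart for either.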

How the data were processed

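RNA of sorted thymocytes was extracted on columns, amplified in 2 rounds to biotin-labelled cRNA with Affymetrix and Enzo reagents and hybridised to Affymetrix mouse 430 2.0 arrays, per the labels' protocols. Each probe set has 1 deposited value per array, on a logarithmic scale that its range shows and that was taken as log2. The log base, background correction, summarisation and normalization are not given in the sources used here. Array means were 4.16 to 4.22 and 90th percentiles 7.54 to 8.16, the Foxp3-null array lowest and the Foxp3-fusion array highest.

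Of 45101 probe sets 64 controls were left out. The platform annotation gave 1 gene for 34945, several for 932 and none for 9160, and those without 1 gene were not named. RefSeq (GRCm38.p6) held 34741 of the 34945 by gene identifier, and 0 symbols changed. Values were quantile normalized over 4 arrays. The gene's probe set was the one with the highest mean over the arrays. The floor was the highest array's 90th percentile over silent tissue genes (3.76 log2, 3.81 as deposited). A gene counted at 2-fold on both scales. No test was possible with 1 array a group. The text names the sort genes, the 15 largest differences each way by the smaller of both scales, leaving out genes where another bright probe set went the other way (3 upward, Ighm, the largest, among them, and 2 downward) and receptor segment or unnamed genes (1 upward, Trav12n-2, and 1 downward, Gm6600), genes that a second probe set also put past 2-fold, and members of 41 gene lists. Genes named outside this rule were chosen after their values were seen. Members and lists were chosen with earlier results of these data known. Alternatives were each scale alone, centred arrays, no floor, a floor 1 log2 higher, the median over a gene's probe sets, leaving out probe sets that match several transcripts, and 3-fold. Requiring all 3 scalings was added after seeing the data. Scripts (Python 3.11.15, pandas 2.3.3, numpy 2.4.6) were tested on simulated data.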

Additional observations from a re-analysis of the deposited data

How the results depend on the processing

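The count of genes 2-fold higher and the count 2-fold lower in Foxp3-fusion cells, 832 and 446, moved with the scaling. Quantile normalization alone gave 833 and 877, deposited values alone 1676 and 450, and centred arrays 520 and 1467. All 3 scalings together, a choice made after seeing the data, gave 520 and 446. A floor 1 log2 higher gave 679 and 203, the median of each gene's probe sets 662 and 181, and a 3-fold threshold 326 and 86. No floor gave 923 and 567, and without probe sets of several transcripts the counts were 802 and 307. The share of higher genes ran from 26.2% with centred arrays to 79.1% at 3-fold. The causes were not tested beyond what each setting changes. None of the 30 leading genes changed direction under an alternative that gave them a value. Their selection had already required 2-fold on both scales and no bright probe set going the other way. Their kept direction is therefore largely a result of that rule and gives no separate support. Without probe sets of several transcripts, 20 of them kept their size, 2 moved and the others had no value. The median of each gene's probe sets brought Kctd14 to -0.29, Gpd2 to -0.41 and Aqp7 to -0.42 log2. Upward it brought Hdac9 to 1.67, P4ha1 to 2.05 and Ncoa4 to 1.72 log2. In all, 13 leading genes moved in size with that median, and Mid1, Tbc1d23 and Pyroxd2 had no value. With the floor 1 log2 higher 13 of the 30 moved in size. Of 33 medians, those of 32 lists and of all measured genes, 11 moved on the deposited scale and 1, PI3K, Akt and mTOR genes at 0.25, with the median over probe sets. No paired analysis was possible because each group has 1 array. Signal over background limits what the dim lower genes can show.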

Other observations

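Genes outside the lists that were 2-fold higher on a second probe set as well included Niban1, a stress response gene, which read 7.64 log2 in Foxp3-null and 9.98 in Foxp3-fusion cells, with 6.50 and 8.07 in GFP- CD25- and GFP- CD25+ cells. P2rx7, the ATP-gated channel gene, read 4.30 and 6.77 with 4.83 and 4.84. Lrig1, a negative regulator of growth factor receptors, read 7.71 and 9.20 with 5.04 and 6.94, and Igf1r, the IGF-1 receptor gene, 5.56 and 7.42 with 4.86 and 5.49. In these 4 genes the Foxp3-fusion array was the highest. The interferon-inducible GTPase gene Iigp1 read 8.82 and 11.15 with 10.08 and 10.06, so the Foxp3-null array was the lowest. Hif1a, the hypoxia response factor gene, read 9.47 and 10.53.

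Among genes 2-fold lower on a second probe set as well, Prim1, the DNA primase subunit gene, read 10.08 and 8.26 with 8.99 and 9.91 in the GFP- arrays. Aldh2, a mitochondrial aldehyde dehydrogenase gene, read 10.42 and 8.59 with 8.97 and 9.34. Igfbp4, an IGF-binding protein gene, read 9.51 and 7.35, with 11.72 in GFP- CD25- and 6.82 in GFP- CD25+ cells, so the Foxp3-null array was not the highest there. Of 3737 measured probe sets without a listed gene, 448 (12.0%) were 2-fold higher and 204 (5.46%) lower in Foxp3-fusion cells.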
